A study of Homo sapiens with 6 samples.

Results

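The genes described here mostly encode proteins that take part in cutting introns out of pre-mRNA. The genes are those of small nuclear ribonucleoproteins (snRNPs), heterogeneous nuclear ribonucleoproteins (hnRNPs) and serine- and arginine-rich (SR) proteins. They were chosen by symbol, as every gene on the array whose platform symbol starts with SNRP, HNRNP, SF3A or SF3B, or with LSM, SFRS or SRSF followed by a digit. This gave 62 of the 18365 genes that could be named, measured by 97 probes. The rule also took LSM1, LSM10, LSM11, LSM14A and LSM14B, described below for other roles, and counted HNRNPU-AS1 apart from HNRNPU. RNA came from LX2, an established human hepatic stellate cell line, and was read on 6 one-channel Phalanx arrays. Cells treated with Syy, a code name for a small compound described by the submitters as an inhibitor of secretion by these cells, gave 3 arrays, and control LX2 cells gave the other 3. The sources used here give neither dose, duration nor vehicle, and do not say whether replicates were separate cultures, so a p-value reflects only how these arrays scatter, which may be technical. All samples are of 1 cell line, and bulk RNA cannot separate a change in the number of cells from a change per cell.

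Splicing is carried out by the spliceosome, which forms on each intron from the U1, U2, U4, U5 and U6 snRNPs. A ring of Sm proteins sits on the RNA of U1, U2, U4 and U5, a ring of LSm proteins sits on U6, and the SF3A and SF3B complexes let U2 hold the branch point. SR proteins bind exons and mostly favour their inclusion, while hnRNPs coat the transcript and often oppose it. Many SR and hnRNP genes also regulate their own transcripts by splicing in exons that lead to decay.

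With Syy, 19 of the 62 genes rose and 8 fell, and 35 did not pass the test (limma, Benjamini-Hochberg adjusted p under 0.05 over all genes). Of all 18365 genes, 11.0% were called higher and 11.5% lower. Splicing factor probes were bright, and calls were more frequent among bright probes: 57 of the 62 had a mean above the median of all probes, and of the 10913 genes with such a mean 16.9% were called higher and 16.9% lower. Against these shares, 30.6% of the splicing factor genes were called higher and 12.9% lower. The rises lay mostly with hnRNP genes (9 of 17) and SR genes (6 of 12), and the LSm genes had 3 falls and no rise among 11. The median log2 fold change was 0.05 over the 62 genes, 0.40 over the hnRNP genes, 0.39 over the SR genes and -0.25 over the LSm genes, against 0.00 over all genes. The median over the SR genes was 0.24 without Syy replicate 3, 0.18 with a pseudocount of 64 and 0.15 with the mean over probes, while that over the hnRNP genes was 0.35 to 0.44 with any 1 array left out.

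The 3 Syy values lay wholly above the 3 control values in 25 genes (40.3%, against 18.9% of all genes) and wholly below in 12 (19.4%, against 19.4%). The shares of all genes include dim probes, and the shares among bright probes alone were not computed. In the values as deposited, without further normalization, 21 splicing factor genes were higher and 4 lower, and all genes split into 3155 higher and 738 lower. The split over all genes was 2490 and 1661 after median centring. The count of falls depended on single arrays. Leaving out Syy replicate 1 gave 5 falls and leaving out Syy replicate 2 gave 2. Leaving out control replicates 1, 2 or 3 gave 4, 2 and 4 falls.

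Syy replicate 3 stood apart from the other arrays in hepatocyte transcripts. The summed deposited intensity of 17 hepatocyte markers was 418 and 796 in Syy replicates 1 and 2 and 26346 in Syy replicate 3, against 412 to 747 in the controls. Of these markers 1 was called higher and none lower. The sums of 6 macrophage markers were 2736 to 3398 with Syy and 1618 to 1934 in controls, with 1 of 6 called. The sums of 12 stellate cell markers were 63357 to 68003 with Syy and 52105 to 57646 in controls, with 4 higher and 1 lower. Without Syy replicate 3, 16 splicing factor genes were higher and 7 lower. With control replicate 2 left out as well, which leaves 2 arrays a group, 9 were higher and 1 was lower, and hnRNP genes had 4 rises, SR genes 2 rises and 1 fall, and LSm genes no call. The part of the other cell markers in the results was not tested.

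**Figure D1:**
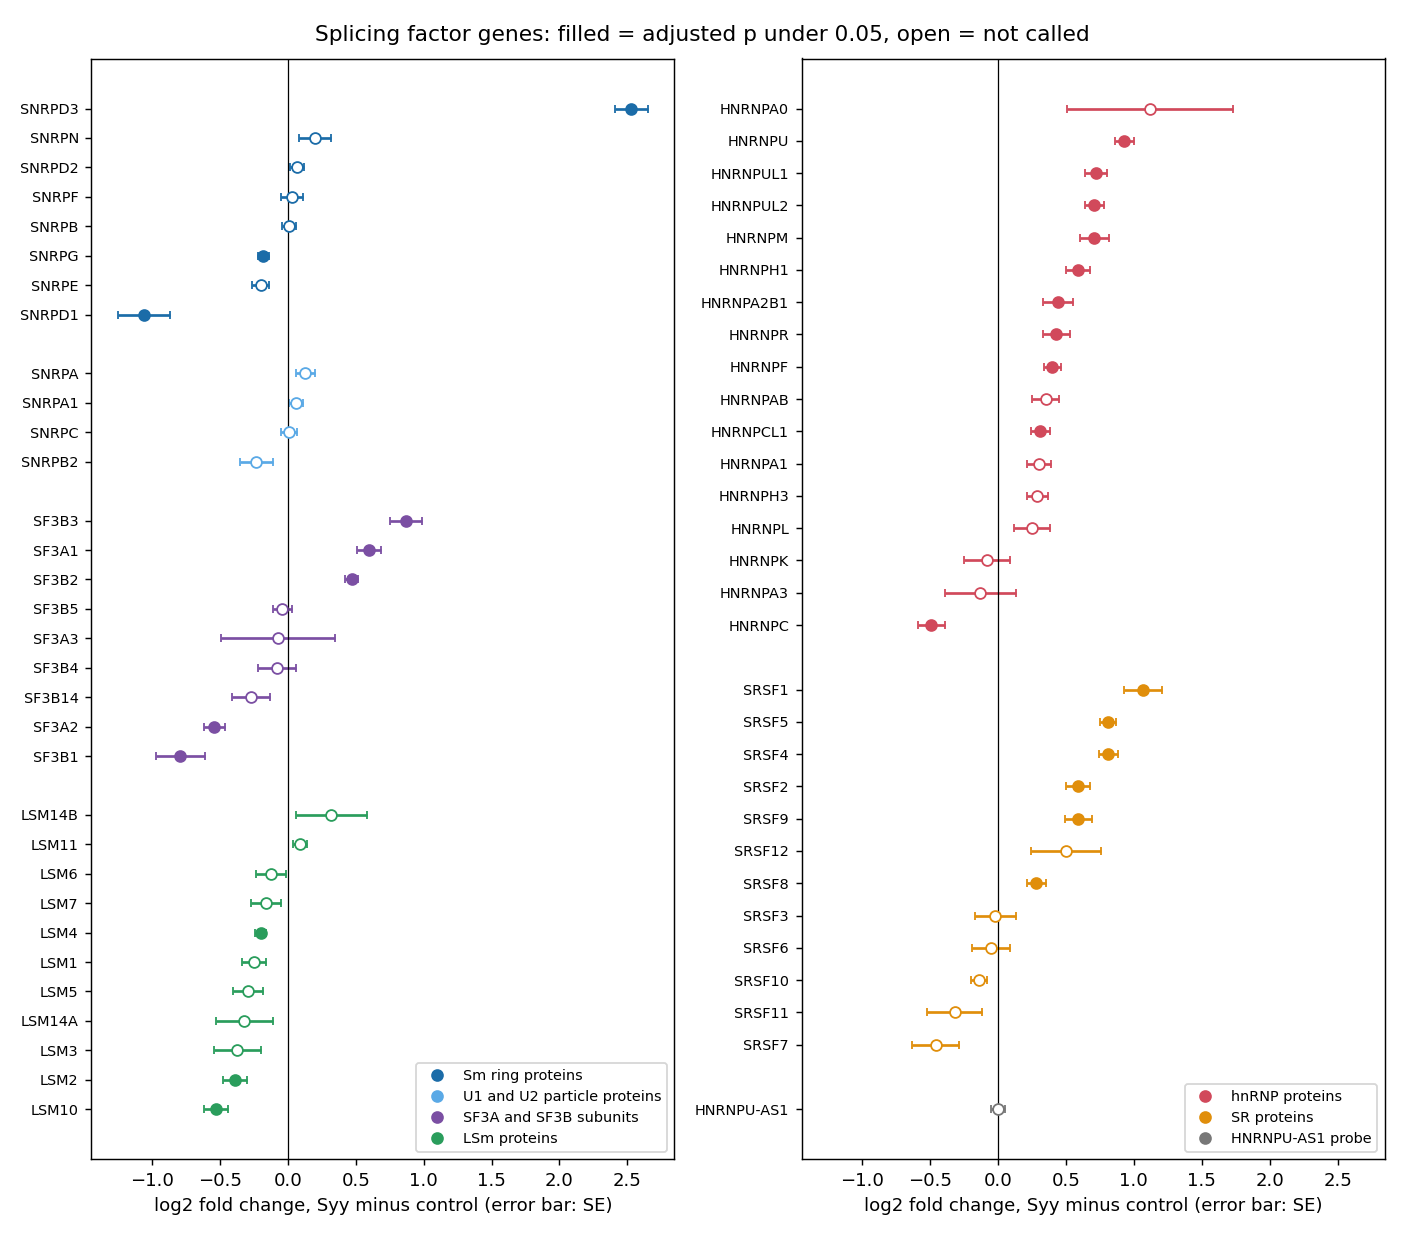
Log2 fold change (Syy minus control, horizontal axis) of each of the 62 splicing factor genes with its standard error, by role. Filled points passed at an adjusted p under 0.05 (19 higher, 8 lower). To the right of 0 lie 14 of 17 hnRNP genes and 7 of 12 SR genes, and 9 of 11 LSm genes lie to the left. Of all 18365 genes, 9374 were above 0 and 8991 below.

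Of the 62 genes, 54 were matched to a RefSeq promoter (GRCh38.p14), here the 250 bases before 1 transcription start. For some genes, SNRPG and HNRNPF among them, this start lies inside the gene's RefSeq span. The letters CCGGAAG on either strand, the core of the ETS factor motif, stood in 16 of these 54 promoters (29.6%), against 8.52% of all 35116 promoters and 10.7% of the 22199 of protein-coding genes. The share did not separate the directions: 5 of 17 genes that rose (29.4%) and 2 of 7 that fell (28.6%) held it. It went with the kind of protein, with 6 of 8 SF3A and SF3B promoters, 4 of 7 Sm ring, 3 of 4 U1 and U2 particle, 2 of 11 SR, 1 of 16 hnRNP and 0 of 8 LSm promoters. The genes of a role group share this feature only as a description of the letters, and no factor binding was measured. The shorter site of NRF2, TGACNNNGC, stood in 6 of the 54 (11.1%, against 10.9% of all promoters), in 4 of 17 genes that rose (23.5%) and 0 of 7 that fell. The E-box CACGTG stood in 4 (7.41%, against 6.34%), the NRF1 motif in 1 (1.85%, against 1.03%), and the CRE TGACGTCA and the YY1 letters AAGATGGCG in none (1.65% and 0.652% of all promoters). Both strands were searched, and the CRE and the NRF2 letters share TGAC.

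The 150 bases before the start used are shown, 5' to 3' on the gene's strand. They are given for 2 genes that rose and 2 that fell with the ETS letters (capitals). SNRPD3 and SRSF1, which rose and have no such letters there, are shown as well. The capitals in SNRPG are the same letters on the other strand, and its bases lie inside the gene's RefSeq span. SRSF5 is read from chr14:69766992-69767141 (plus strand), SF3A1 from chr22:30356895-30357044 (minus strand), SF3A2 from chr19:2236674-2236823 (plus strand), SNRPG from chr2:70293459-70293608 (minus strand), SNRPD3 from chr22:24555500-24555649 (plus strand) and SRSF1 from chr17:58007247-58007396 (minus strand).
SRSF5: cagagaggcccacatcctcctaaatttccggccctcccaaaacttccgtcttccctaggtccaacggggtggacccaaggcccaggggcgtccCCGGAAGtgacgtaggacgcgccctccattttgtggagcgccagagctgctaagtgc
SF3A1: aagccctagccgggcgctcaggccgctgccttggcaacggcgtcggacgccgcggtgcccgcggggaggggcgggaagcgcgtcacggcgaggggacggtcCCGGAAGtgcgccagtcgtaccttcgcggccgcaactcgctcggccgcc
SF3A2: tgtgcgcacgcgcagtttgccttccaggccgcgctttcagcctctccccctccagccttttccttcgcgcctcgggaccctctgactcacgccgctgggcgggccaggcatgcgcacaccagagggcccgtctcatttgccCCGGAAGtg
SNRPG: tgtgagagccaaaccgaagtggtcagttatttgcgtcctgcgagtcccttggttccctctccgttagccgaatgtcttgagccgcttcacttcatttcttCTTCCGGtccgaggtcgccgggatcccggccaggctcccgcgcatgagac
SNRPD3: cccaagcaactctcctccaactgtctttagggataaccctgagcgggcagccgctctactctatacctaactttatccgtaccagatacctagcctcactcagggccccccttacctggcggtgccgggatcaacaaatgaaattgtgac
SRSF1: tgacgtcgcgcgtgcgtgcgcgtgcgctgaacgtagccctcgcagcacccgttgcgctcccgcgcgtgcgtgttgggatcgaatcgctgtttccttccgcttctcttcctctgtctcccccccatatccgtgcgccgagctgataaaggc

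Among the 8 Sm ring genes 1 rose (12.5%), 2 fell (25.0%) and 5 did not pass, against 11.0% higher and 11.5% lower of all genes. SNRPD3, which encodes Sm D3, had deposited intensities of 99.7, 117.8 and 97.1 with Syy, against 3.25, 0.00 and 4.60 in controls. The groups were far apart, but the control values lie at the floor of the array, so no fold is given and the size of the difference is set by the pseudocount. On the log2(value + 16) scale, quantile normalized over the 6 arrays and used for all values below, SNRPD3 read 6.77 ± 0.08 with Syy and 4.24 ± 0.23 in controls (SD, n = 3 each). The log2 fold change was 2.53 ± 0.12 (SE, adjusted p = 0.00129), 1.84 with a pseudocount of 32 and 1.23 with 64, and it was called under all 15 alternatives tried. Sm D3 is part of spliceosomes in general, and SNRPD3 had a single probe, so a floor reading does not show that the transcript was missing in controls.

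SNRPD1, which encodes Sm D1, the ring neighbour of Sm D2, went the other way. It read 8.42, 8.24 and 8.78 with Syy, against 9.83, 9.52 and 9.27 in controls. All Syy values lay below all control values, a 2.09-fold fall (log2 fold change -1.06 ± 0.19, SE; adjusted p = 0.0155). The call was lost without Syy replicate 2 (adjusted p = 0.0513) and without control replicate 2 (adjusted p = 0.0599). SNRPG, for Sm G, read 14.60, 14.66 and 14.65 with Syy and 14.82, 14.82 and 14.81 in controls. The spread between its arrays was small, and the fall of 0.18 on the log2 scale passed (adjusted p = 0.0358) but was lost whichever array was left out (adjusted p from 0.0539 to 0.0958). Its second bright probe read -0.17 ± 0.08 and was not called.

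The other Sm ring genes did not pass. SNRPB, which encodes Sm B, read 15.29, 15.32 and 15.35 with Syy and 15.29, 15.34 and 15.29 in controls, so that the groups overlapped (0.01 ± 0.05, SE), and its 2 other probes read -0.04 each. SNRPD2 (0.07) and SNRPF (0.03) lay within 0.1 of 0 as well, although the second probe of SNRPD2 read -0.25 ± 0.07 without passing (adjusted p = 0.0552). SNRPE, for Sm E, had intensities of 1.05 to 2.96 with Syy and 2.76 to 5.42 in controls, all at the floor, so its difference of -0.20 says little about the gene. SNRPN, the imprinted relative of SNRPB known from brain, was also dim on the probe used (0.20, adjusted p = 0.279), and the probes that the platform names for SNRPN together with SNURF, which shares its transcript, read 0.15 ± 0.11 and 0.19 ± 0.15 without passing. Probes of near-identical copies can read each other's RNA: Sm genes have many processed copies in the genome, and probe sequences were not used here, so these values are uncertain in that respect.

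The proteins particular to U1 and U2 had no call among 4 genes, against 11.0% of all genes called higher and 11.5% lower. SNRPA, the U1 protein that binds a stem loop of its RNA, differed by 0.13 ± 0.07 and SNRPC, which steadies the pairing of U1 with the 5' splice site, by 0.01 ± 0.06. The U2 proteins SNRPA1 and SNRPB2, which bind as a pair, differed by 0.06 ± 0.05 and by -0.23 ± 0.12 (SE). With median centring SNRPB2 read -0.37 and passed (adjusted p = 0.0446). The medians of the Sm ring and of the U1 and U2 genes changed sign with the scaling: 0.02 and 0.03 here, -0.21 and -0.09 after median centring, and -0.08 and 0.04 in the values as deposited.

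**Figure D2:**
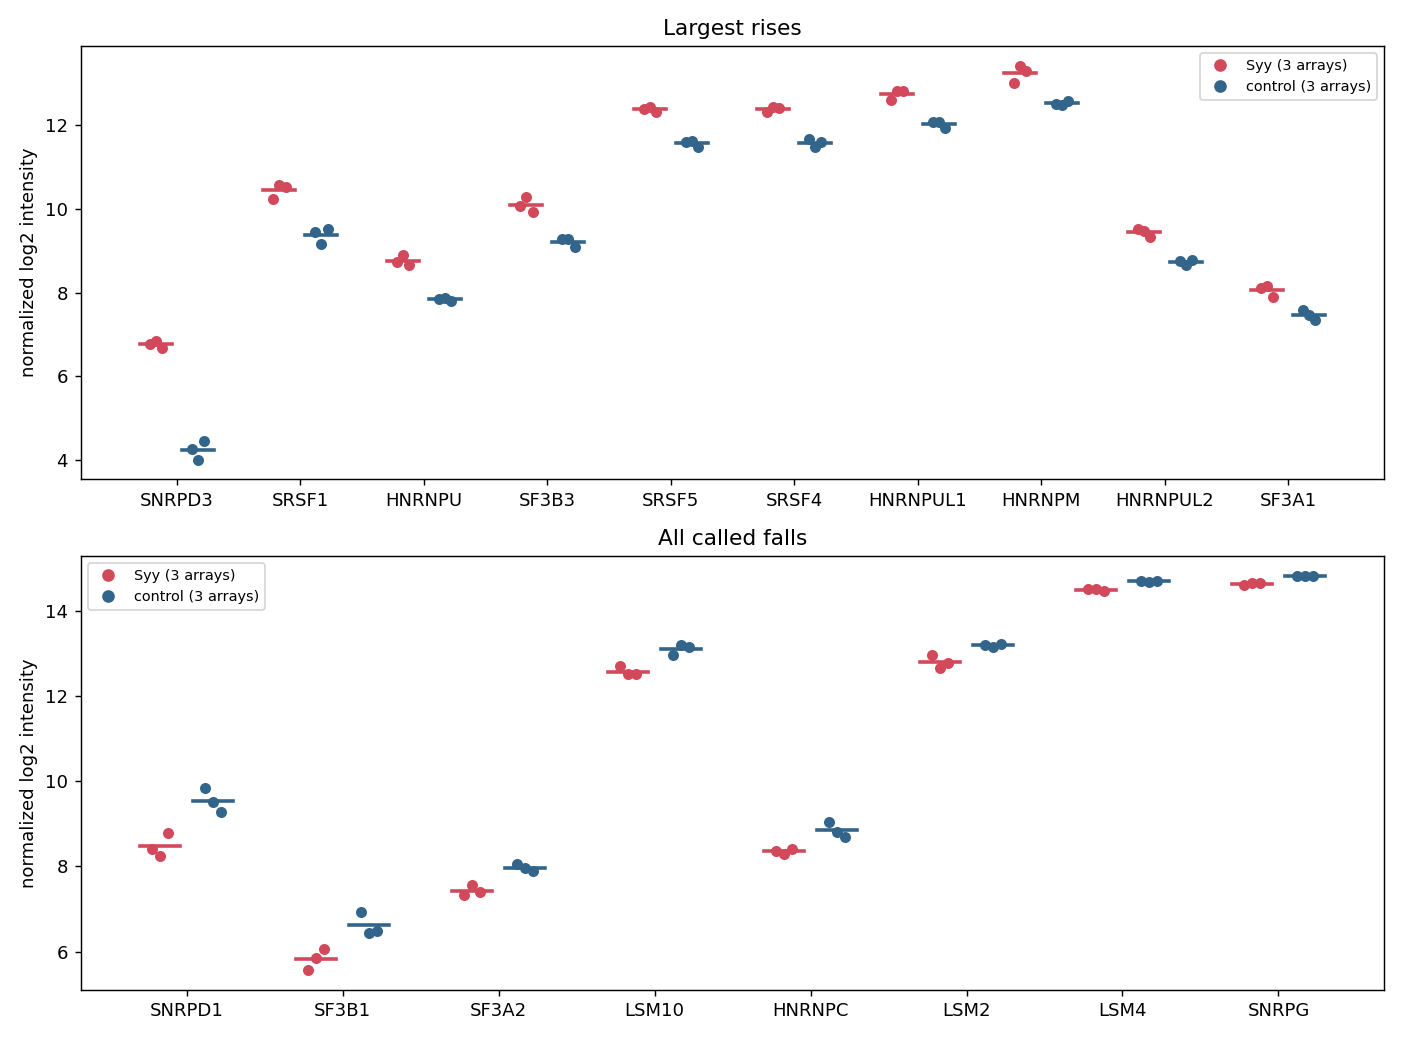
Normalized log2 intensity (vertical axis) on each array for the 10 largest rises that did not overlap (top) and the 8 falls (bottom), Syy arrays left of control arrays, with a bar at each mean. The genes of both panels were chosen as called and without overlap, so the separation of the groups is a condition of the choice. Of all genes, 18.9% had all Syy values above all control values and 19.4% had all below. The size of the SNRPD3 gap is set by the pseudocount.

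Of the SF3A and SF3B subunits, which together bind U2 to the branch point, 3 of 9 were called higher (33.3%) and 2 lower (22.2%). The shares of all genes were 11.0% and 11.5%, and 16.9% in each direction for genes with a mean above the median of all probes. SF3B3, the large scaffold subunit of SF3B, read 10.06, 10.29 and 9.92 with Syy, against 9.29, 9.29 and 9.08 in controls. This was a 1.83-fold rise without overlap (0.87 ± 0.12, SE; adjusted p = 0.00643), and its second probe rose by 1.19 ± 0.08. SF3A1, a subunit of SF3A, read 8.12, 8.15 and 7.90 with Syy, against 7.58, 7.47 and 7.35 in controls. It rose 1.51-fold (adjusted p = 0.0103), and its second probe by 0.23 ± 0.06, also called. SF3B2, which binds the RNA beside the branch point, rose 1.38-fold (11.36 ± 0.03 with Syy and 10.89 ± 0.04 in controls, SD, n = 3 each; adjusted p = 0.00334). SF3B2 and SF3B3 were called under all 15 alternatives, and SF3A1 was lost only without both Syy replicate 3 and control replicate 2 (adjusted p = 0.0573).

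SF3B1, the subunit that encloses the branch point and is often mutated in blood cancers, read 5.57, 5.85 and 6.07 with Syy, against 6.93, 6.44 and 6.48 in controls. It fell 1.73-fold without overlap (-0.79 ± 0.18, SE; adjusted p = 0.0301). The probe was dim, with intensities of 34.5 to 52.9 with Syy and 57.0 to 106.3 in controls. A second probe above the median read -0.14 ± 0.11 and was not called, and leaving out any single array other than Syy replicate 3 ended the call (adjusted p from 0.0654 to 0.0876). SF3A2 read 7.33, 7.56 and 7.41 with Syy, against 8.05, 7.96 and 7.90 in controls, a 1.45-fold fall (adjusted p = 0.00838) that did not pass in the values as deposited (-0.26, adjusted p = 0.267). Of the subunits not called, SF3B4 (-0.08) and SF3B5 (-0.04) lay near 0. SF3B14, now named SF3B6, which touches the branch point itself, read -0.27 ± 0.14.

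For SF3A3 a single array set the sign. Its brightest probe read 8.22, 9.81 and 9.65 with Syy, against 9.29, 9.22 and 9.37 in controls, so Syy replicate 1 lay below and the other Syy arrays above all controls. Over 6 arrays the difference was -0.07 ± 0.42 (SE), and without Syy replicate 1 it was 0.44 and called (adjusted p = 0.0280). The second probe of SF3A3 rose by 0.85 ± 0.12 (adjusted p = 0.00880, every probe fitted on its own).

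Of the 11 LSm genes, 3 fell (27.3%), none rose and 8 did not pass, against 11.5% lower and 11.0% higher of all genes. The number of falls was 1 to 3 with 1 array left out, and it was 1 without Syy replicate 2 or without any 1 control. A fold change below 0 was read in 9 (10 with median centring and 7 with no normalization). Among all 18365 genes 8991 lay below 0, 10398 with median centring and 6104 with no normalization. LSM10, which with LSM11 replaces D1 and D2 in the U7 particle that trims histone mRNA, read 12.70, 12.51 and 12.51 with Syy, against 12.97, 13.19 and 13.16 in controls. It fell 1.45-fold without overlap (-0.53 ± 0.09, SE; adjusted p = 0.0117), and the call held with each array left out. LSM11 was at the floor in both groups (intensities of 4.81 to 5.26 with Syy and 2.76 to 4.34 in controls).

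LSM2 and LSM4 belong both to the nuclear ring on U6 and to the cytoplasmic ring that starts mRNA decay. LSM2 read 12.96, 12.66 and 12.77 with Syy, against 13.19, 13.16 and 13.23 in controls. LSM4 read 14.51, 14.51 and 14.46 with Syy, against 14.71, 14.68 and 14.70 in controls. Neither gene overlapped between groups, and the falls were 1.31-fold (adjusted p = 0.0251) and 1.15-fold (adjusted p = 0.0254). Leaving out any single array other than Syy replicate 1 ended both calls (adjusted p from 0.0574 to 0.0866 for LSM2 and 0.0502 to 0.0737 for LSM4). The second probe of LSM4 gave the same -0.20 and did not pass (adjusted p = 0.0700).

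LSM1, found only in the cytoplasmic ring, read 9.18, 8.96 and 9.24 with Syy, against 9.40, 9.45 and 9.28 in controls. The Syy values were all lower, but the difference of -0.25 ± 0.09 (SE) did not pass (adjusted p = 0.115), and with no normalization it was 0.05. The ring members LSM3 (-0.37), LSM5 (-0.29), LSM6 (-0.12) and LSM7 (-0.16) did not pass either. LSM5 was called after median centring (adjusted p = 0.0362). LSM14A and LSM14B, which act in cytoplasmic granules and not in splicing, read -0.32 ± 0.21 and 0.32 ± 0.26. LSM14A had 9.56 on Syy replicate 3, beside 8.76 and 9.06 on the other Syy arrays, and without that array it was called at -0.54 (adjusted p = 0.0424).

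The hnRNP genes had 9 rises (52.9%) and 1 fall (5.88%) among 17, against 11.0% higher and 11.5% lower of all genes. Fold changes above 0 were read in 14 of the 17 (15 with median centring and 16 with no normalization). The count over all genes moved with the scaling: of 18365, 9374 lay above 0, 7967 with median centring and 12261 with no normalization. HNRNPU, which binds chromatin and nuclear RNA as a scaffold, read 8.74, 8.89 and 8.67 with Syy, against 7.85, 7.87 and 7.80 in controls. It rose 1.90-fold without overlap (0.93 ± 0.07, SE; adjusted p = 0.00233), while its second bright probe read 0.25 ± 0.07 and did not pass. Its relatives rose with it. HNRNPUL1 read 12.60, 12.82 and 12.82 with Syy, against 12.07, 12.09 and 11.93 in controls (1.64-fold, adjusted p = 0.00478). HNRNPUL2 read 9.53, 9.47 and 9.33 with Syy, against 8.76, 8.66 and 8.79 in controls (1.63-fold, adjusted p = 0.00340). All 3 genes of this family were called with each array left out in turn. Without both Syy replicate 3 and control replicate 2, HNRNPUL1 did not pass (adjusted p = 0.0607). The second probe of HNRNPUL2 read 0.40 ± 0.13 and did not pass. The probe that the platform names HNRNPU-AS1, a symbol RefSeq lists as an older name of HNRNPU, was at the floor, with intensities of 0.00 to 1.05 with Syy and 0.00 to 1.08 in controls.

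HNRNPM, which favours exon skipping or inclusion depending on where it binds, read 13.01, 13.43 and 13.29 with Syy, against 12.52, 12.49 and 12.59 in controls. It rose 1.64-fold (0.71 ± 0.11, SE; adjusted p = 0.0106). The HNRNPM call was lost without both Syy replicate 3 and control replicate 2 (adjusted p = 0.118). Of the proteins that bind runs of G, HNRNPH1 rose by 0.59 ± 0.09 on the log2 scale (adjusted p = 0.00887) and HNRNPF 1.32-fold (adjusted p = 0.0103). HNRNPH3 did not overlap between the groups but read 0.29 with an adjusted p of 0.0511, which was 0.0137 with median centring and at most 0.178 over the alternatives. HNRNPR rose 1.35-fold (adjusted p = 0.0297), and its second probe rose by 0.65 ± 0.06. Leaving out any single array other than Syy replicate 1 ended the HNRNPR call (adjusted p from 0.0541 to 0.0909).

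HNRNPA1, one of the most studied splicing repressors, read 11.73, 11.81 and 11.84 with Syy, against 11.60, 11.55 and 11.31 in controls. The Syy values were all higher, and the difference of 0.30 ± 0.09 (SE) did not pass (adjusted p = 0.0612), although it did with median centring (adjusted p = 0.0405) and with no normalization (adjusted p = 0.0417). HNRNPA2B1, its close relative, rose 1.36-fold (adjusted p = 0.0392), a call that ended with any single array left out other than Syy replicate 1 (adjusted p from 0.0594 to 0.127). HNRNPAB read 0.35 ± 0.10 on its brightest probe (adjusted p = 0.0624) and rose by 0.80 ± 0.04 on the other (adjusted p = 0.00200). HNRNPAB was called without Syy replicate 1 (adjusted p = 0.0337). HNRNPA0 varied widely: it read 10.10, 8.19 and 10.17 with Syy, against 8.66, 8.73 and 7.71 in controls. Syy replicate 2 lay among the controls, and the difference of 1.12 ± 0.61 (SE) did not pass; without that array the difference was 1.77 (adjusted p = 0.0398). HNRNPA3 (-0.13 ± 0.26) did not pass.

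HNRNPC, which binds runs of U and keeps cryptic exons out, was the hnRNP gene that fell. It read 8.37, 8.30 and 8.40 with Syy, against 9.04, 8.82 and 8.69 in controls, a 1.41-fold fall (-0.49 ± 0.10, SE; adjusted p = 0.0198). The call was lost without Syy replicate 1 or 2 or control replicate 2 (adjusted p from 0.0530 to 0.0690), and it did not pass with median centring (adjusted p = 0.0547) or with no normalization (adjusted p = 0.377). The probe named for HNRNPCL1, an intronless copy of HNRNPC, rose 1.24-fold (adjusted p = 0.0278), and its 2 other probes above the median read 0.30 and 0.19 without passing. The HNRNPCL1 call was lost with any 1 array left out other than Syy replicate 2 (adjusted p from 0.0585 to 0.0952). Since the coding sequences of HNRNPC and HNRNPCL1 are near copies, neither value can be assigned with certainty. HNRNPL, which binds CA repeats, read 0.25 ± 0.13 and was called without Syy replicate 3 (0.39, adjusted p = 0.0257). HNRNPK, a binder of C-rich RNA, read -0.08 ± 0.17 on its brightest probe and rose by 0.27 ± 0.07 on the other (adjusted p = 0.0480).

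**Figure D3:**
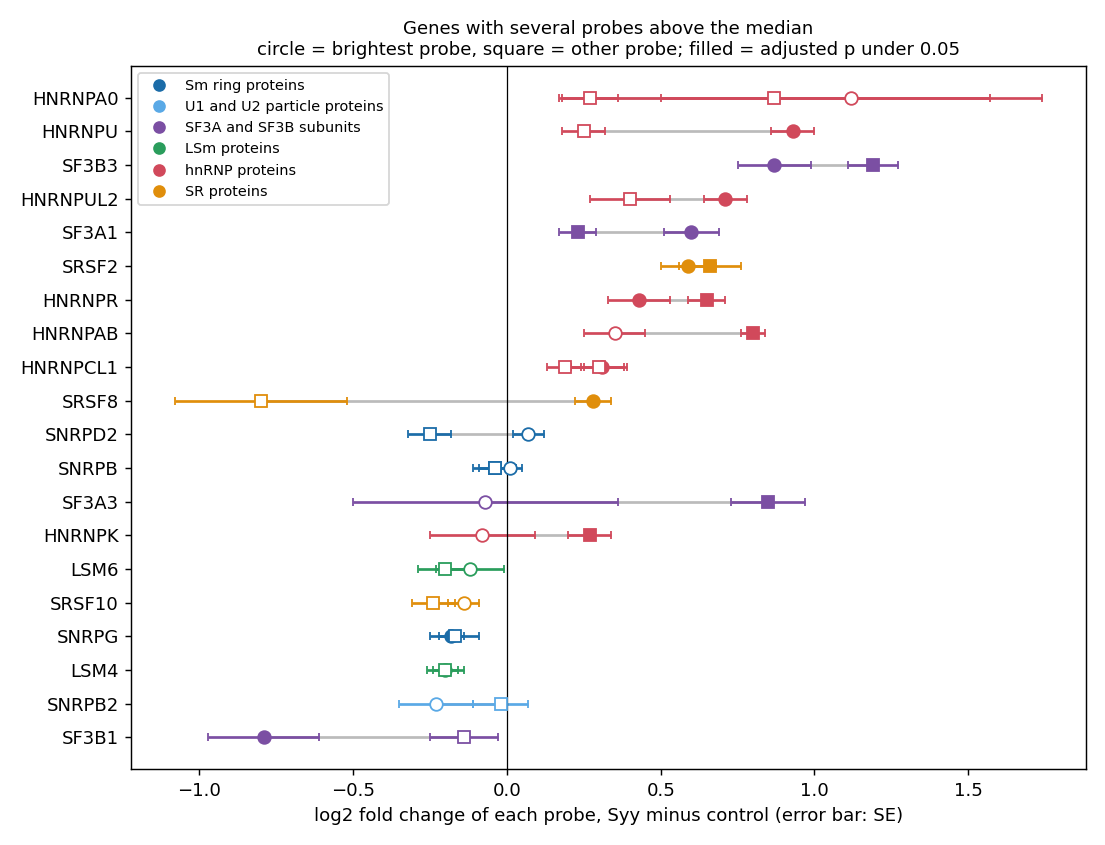
Log2 fold change (horizontal axis) with standard error of every probe above the median for the 20 genes with several such probes, circles for the brightest probe and squares for the others, filled where the adjusted p over all probes was under 0.05. In 4 genes (SF3B3, SRSF2, HNRNPR and SF3A1) all such probes rose, in 6 none was called and in 10 the probes differed in verdict; no gene had probes called in opposite directions.

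The SR genes had 6 rises (50.0%) and no fall among 12, against 11.0% higher and 11.5% lower of all genes. Of genes with a mean above the median of all probes, 16.9% were called in each direction. SRSF1, the founding member, which promotes exon inclusion and has roles in translation and decay, read 10.24, 10.58 and 10.52 with Syy, against 9.46, 9.15 and 9.53 in controls. It rose 2.09-fold without overlap (1.07 ± 0.14, SE; adjusted p = 0.00589), and its second probe was at the floor in both groups. Without both Syy replicate 3 and control replicate 2, SRSF1 did not pass (adjusted p = 0.0607). SRSF4 and SRSF5, long and short relatives that bind similar exonic elements, rose by the same amount. SRSF4 read 12.33, 12.45 and 12.41 with Syy, against 11.67, 11.48 and 11.60 in controls (1.75-fold, adjusted p = 0.00243). SRSF5 read 12.40, 12.44 and 12.32 with Syy, against 11.61, 11.63 and 11.48 in controls (1.75-fold, adjusted p = 0.00235). Both were called under all 15 alternatives. SRSF6, the other gene of this subfamily, read -0.05 ± 0.14 (SE) and did not pass.

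SRSF2, known as SC35 and used as a mark of nuclear speckles, rose by 0.59 on the log2 scale (6.54 ± 0.15 with Syy and 5.95 ± 0.08 in controls, SD, n = 3 each; adjusted p = 0.0102), with 0.66 ± 0.10 from its second probe. SRSF8 is a copy of SRSF2, and without probe sequences neither gene's value can be assigned with certainty. It rose by 0.28 ± 0.07 on its brightest probe (adjusted p = 0.0303), but its other probe read -0.80 ± 0.28, and the mean over both was -0.26 and not called (adjusted p = 0.247). The SRSF8 call was also lost with any 1 array left out other than control replicate 2 (adjusted p from 0.0525 to 0.0887). SRSF9 rose 1.51-fold (12.58 ± 0.06 with Syy and 11.99 ± 0.18 in controls, SD, n = 3 each; adjusted p = 0.0130), a call lost without control replicate 1 (adjusted p = 0.0546). Without both Syy replicate 3 and control replicate 2, neither SRSF2 (adjusted p = 0.0662) nor SRSF9 (adjusted p = 0.101) was called.

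SRSF3 and SRSF7, the short SR proteins that also take part in mRNA export, did not pass. SRSF3 read 12.00, 11.84 and 12.28 with Syy, against 12.26, 12.07 and 11.86 in controls, with full overlap. SRSF7 read 7.01, 7.04 and 7.57 with Syy, against 7.80, 7.53 and 7.68 in controls. The third Syy array lay among the controls and the difference of -0.46 ± 0.17 (SE) did not pass (adjusted p = 0.115), whereas without Syy replicate 3 SRSF7 fell by 0.64 (adjusted p = 0.0173). SRSF10, which turns into a general repressor when it loses its phosphates, read -0.14 ± 0.06, and SRSF11 read -0.32 ± 0.20. SRSF12 was dim and read 0.50 ± 0.26, with intensities of 14.8, 11.6 and 35.6 with Syy and 6.08 to 9.76 in controls.

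**Figure D4:**
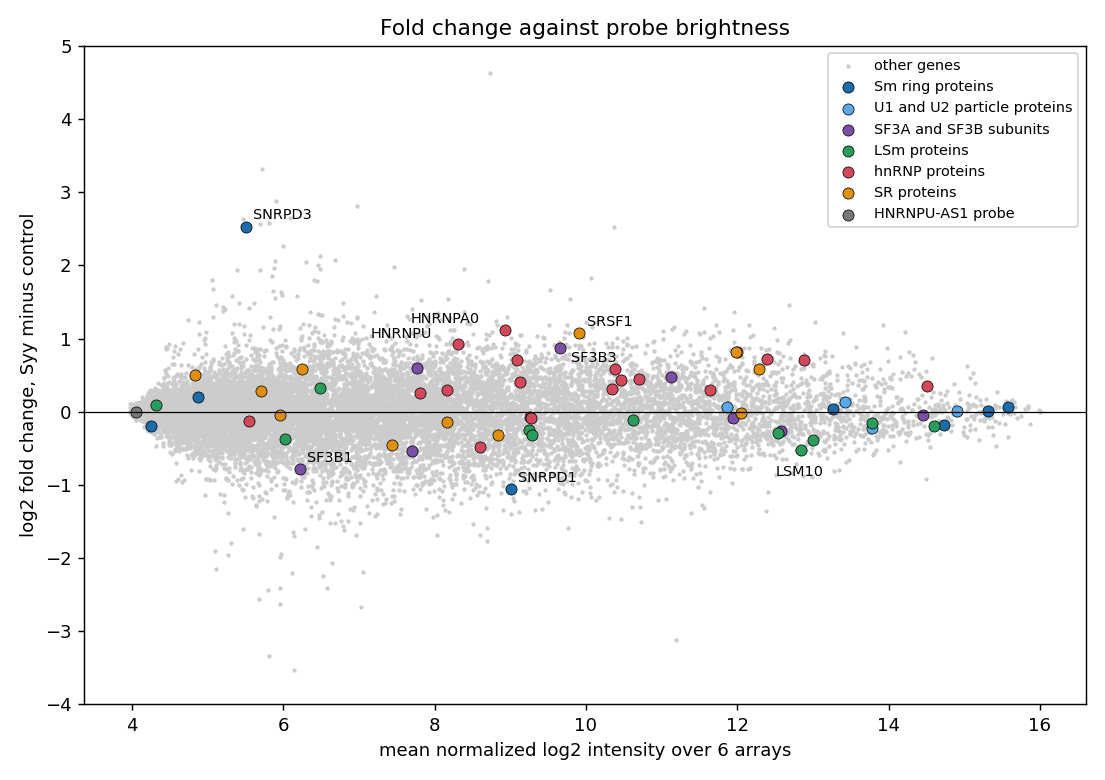
Log2 fold change (Syy minus control, vertical axis) against mean normalized log2 intensity over the 6 arrays (horizontal axis), with the splicing factor genes coloured by role over all other genes in grey. The members spread over the whole range of brightness, and SNRPD1 (-1.06) lies lowest. SNRPD3 lies highest, at a height set by the pseudocount because its control values are at the floor.

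Other genes of splicing, from lists of 156 symbols outside the chosen patterns, moved in both directions as well. Of the 148 found on the array, 33 rose (22.3%) and 23 fell (15.5%), against 11.0% and 11.5% of all genes. Of the 148, 123 were measured by a probe above the median, and among all genes with such probes 16.9% were called in each direction. With no normalization 49 of the 148 were higher and 8 lower. In the proteins of U5 and the tri-snRNP, the particle that brings the catalytic parts together, 8 of 18 rose (44.4%) and 2 fell (11.1%). SNRNP200, the helicase that unwinds U4 from U6, read 10.48, 10.54 and 10.71 with Syy, against 9.73, 9.53 and 9.65 in controls (1.92-fold, adjusted p = 0.00286). PRPF8, the core of the catalytic centre, named beside it after its value was seen, rose 1.89-fold (adjusted p = 0.00212).

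The PRP19 complex and its partners, which hold the active spliceosome together, had 3 of 18 higher (16.7%) and 6 lower (33.3%). Of all genes 11.0% were called higher and 11.5% lower. Only 12 of the 18 had a probe above the median. With the fit limited to such genes, 4 of these 12 were higher and 6 lower, against 2041 and 2080 of all 10913. PRPF19 itself rose 2.08-fold (12.14, 11.43 and 11.90 with Syy, against 10.92, 10.69 and 10.69 in controls; adjusted p = 0.0149). Its direct partner CDC5L fell 1.93-fold (6.29, 6.18 and 6.24 with Syy, against 7.19, 7.15 and 7.22 in controls; adjusted p = 0.00167). The call of PRPF19 was lost without control replicate 2 or 3 (adjusted p from 0.0597 to 0.0619), and CDC5L was called under all 15 alternatives. RBM22 rose 2.02-fold on a dim probe (adjusted p = 0.0364), a call lost without any 1 Syy array or without control replicate 1 or 2 (adjusted p from 0.0502 to 0.110).

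Among SR-related proteins and the kinases of SR proteins, 2 of 18 rose (11.1%) and 3 fell (16.7%), against 11.0% and 11.5% of all genes and 16.9% in each direction of genes with probes above the median. CLK1, a kinase that phosphorylates SR proteins in the nucleus, fell 2.44-fold (6.44, 6.25 and 6.71 with Syy, against 7.82, 7.69 and 7.75 in controls; adjusted p = 0.00317). In the snRNP assembly list, 1 of 14 rose and 4 fell, among them GEMIN2, which holds the Sm ring during assembly (2.17-fold lower; 8.58, 8.56 and 8.81 with Syy, against 9.94, 9.78 and 9.58 in controls; adjusted p = 0.00357). Of the hnRNP-like and tissue regulators, 10 of 34 rose and 2 fell. ELAVL1, which stabilizes AU-rich mRNA, rose 2.14-fold (10.32, 10.22 and 10.29 with Syy, against 9.12, 9.24 and 9.19 in controls; adjusted p = 0.00137), and RBFOX2 rose 1.95-fold (adjusted p = 0.0102). SLU7, needed for choice of the 3' splice site, fell 1.90-fold (adjusted p = 0.0112), a call that ended with no normalization (adjusted p = 0.0560), in a list of helicases and late-step factors with 1 of 11 higher and 2 lower. LUC7L3, a U1-associated protein, fell 1.88-fold (adjusted p = 0.0235), a call that ended with any single array left out other than Syy replicate 3 (adjusted p from 0.0619 to 0.0873), in a list of U1, U2 and 3' splice site factors with 5 of 19 higher and 1 lower. Minor spliceosome proteins had 1 of 8 higher and 3 lower, and the exon junction complex 2 of 8 higher and none lower.

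**Figure D5:**
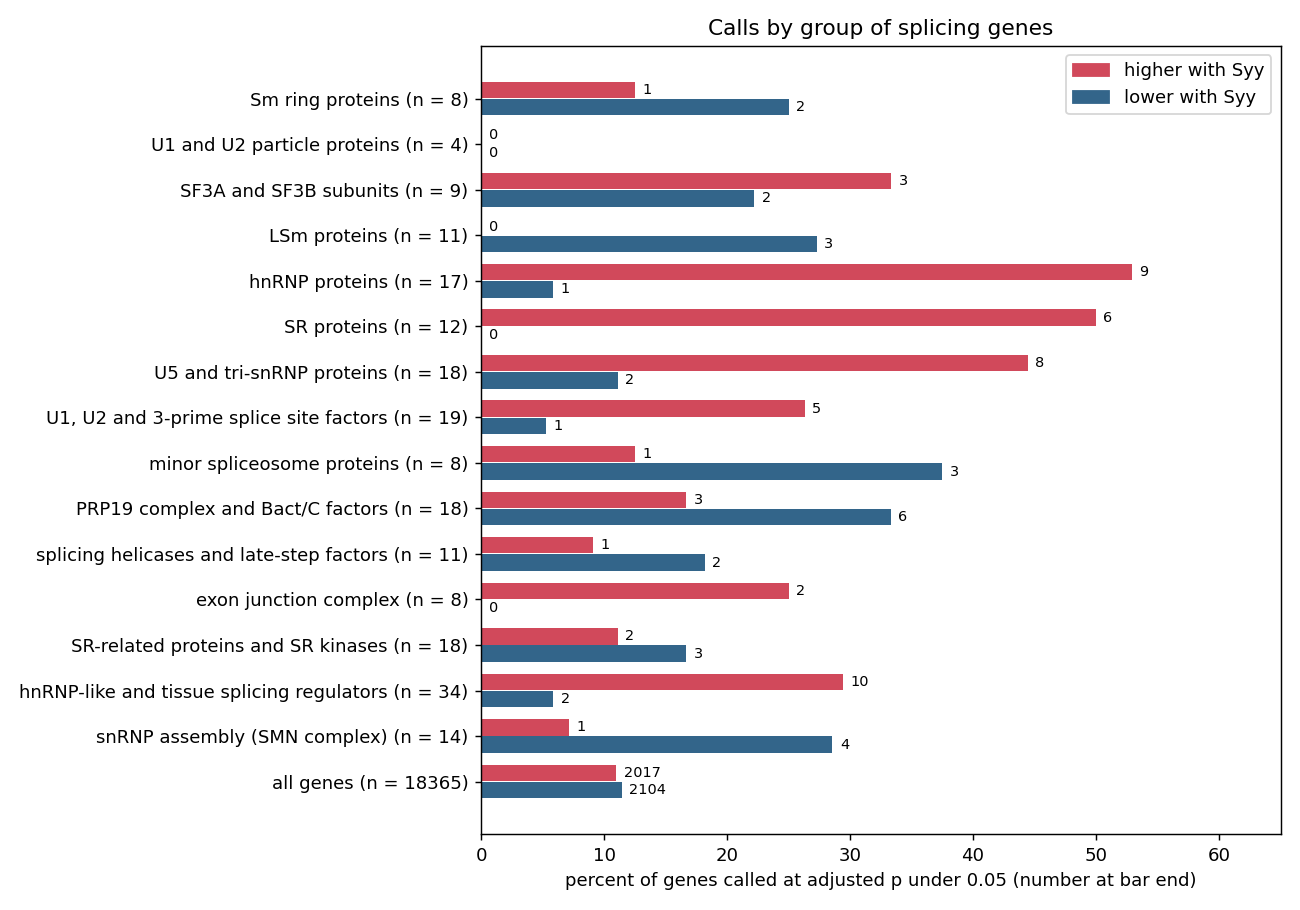
Percent of genes called higher (upper bar) and lower (lower bar) with Syy in each group of splicing genes and in all genes, with the number called at each bar's end. The share of rises is highest in 9 of 17 hnRNP genes, 6 of 12 SR genes and 8 of 18 U5 and tri-snRNP genes. It was 11.0% of all genes and 16.9% of genes with a mean above the median of all probes. No LSm gene and no U1 and U2 particle gene rose.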

How the data were processed

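The authors' deposited values are one-channel probe intensities on a linear scale (Cy5-labelled amplified RNA, per the labels' protocols) for 31741 probes on 6 arrays. The sources used here do not state scanner software, background correction or scaling. Deposited intensities reached down to -10.6, and median intensities were 23.1 to 27.3 on Syy arrays and 18.4 to 24.9 on control arrays. The small number of arrays sets the precision, and probes carried no detection call here.

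Intensities were used as log2(value + 16), quantile normalized over the 6 arrays, so fold changes of dim genes are understated. Of the probes, 24740 had 1 platform symbol, 977 several and 6024 none here. Each gene was read from its probe with the highest mean. Syy was tested against control with limma (version 3.58.1, R 4.3.3), two-sided, by lmFit followed by eBayes. P-values were adjusted by Benjamini-Hochberg across the 18365 genes, and genes under 0.05 were called. The steps were tested on simulated data. Alternatives were median centring, no normalization, pseudocounts of 32 and 64, a filter on dim probes, other probe choices, a replicate block and arrays left out; probe-level fits were added after the data were seen.

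Members and lists were chosen with earlier results of these data known. Values on every array are given for called members without overlap (up to 10 rises and 10 falls above the median of all probes), for HNRNPA1, SF3B1, SRSF1, SNRPB and LSM1, and for up to 5 rises and 5 falls of other splicing genes; other per-array values were chosen after they were seen. Of the 62 symbols, 60 are current in RefSeq and 2 older names.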

Additional observations from a re-analysis of the deposited data

Results flagged for a closer look

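A probe left out of the gene-level values, because the platform gives it the symbols of a pseudogene and a retrocopy of HNRNPA1 (HNRNPA1P10 and HNRNPA1L2), was higher with Syy: it read a log2 fold change of 0.74 ± 0.11 (SE), with an adjusted p of 0.0122 when every probe was fitted on its own. It was picked out because a signal appears in data outside the main comparison. Probes that the platform names for HNRNPA1 together with these copies read 0.21 ± 0.09 on a bright probe and 0.00 ± 0.07 on a probe at the floor, and neither was called.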

How the results depend on the processing

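Of the 27 called splicing factor genes, 16 were called with each single array left out and 8 under all 15 alternatives (HNRNPH1, HNRNPU, HNRNPUL2, SF3B2, SF3B3, SNRPD3, SRSF4 and SRSF5). Matching shares among all called genes are not given here, so these counts do not compare splicing factor genes with other genes. The count of rises (19) was 14 to 19 with 1 array left out, and that of falls (8) was 2 to 7. With 1 array left out, 1194 to 1798 of all genes were higher and 1096 to 1957 lower, and of the other splicing genes 21 to 32 were higher and 12 to 29 lower. Without Syy replicate 3 and control replicate 2, 9 splicing factor genes were higher and 1 lower, 12 and 13 other splicing genes, and 616 and 578 of all genes. In the values as deposited, 21 splicing factor genes were higher and 4 lower, 49 and 8 other splicing genes, and 3155 of all genes were higher and 738 lower. Same-numbered arrays did not deviate together (correlations of -0.08, -0.08 and -0.03). Such correlations cannot show whether the samples were paired when made, and the main fit did not pair them. With the replicate block 14 splicing factor genes were higher and 1 lower, 19 and 13 other splicing genes, and 1051 and 852 of all genes. Over the alternatives 16 splicing factor genes had fold changes on both sides of 0, of which 14 were called nowhere; the other 2 were SRSF8 with the mean over probes (-0.26) and SF3A3 without Syy replicate 1 (0.44; -0.36 to 0.44 over the 6 arrays left out). The median over splicing factor genes stayed between 0.03 and 0.15. Fits with an array left out use fewer samples. The cause of the differences was not tested, and probes near the floor, such as those of SNRPD3, SNRPE and LSM11, limit what can be said of their genes.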
